A study of Mus musculus with 18 samples.

Results

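Proteoglycans and the enzymes that build and trim heparan sulfate were examined as a set of 45 genes of the 55471 genes in the RNA-Seq files of mouse pluripotent cells. The set is a list of gene symbols that was drawn up by function, with earlier results of these data known, and holds 24 core proteins and 21 enzymes. All 45 symbols were found in the files. In the core group are the glypicans, the syndecans, the basement membrane proteoglycans perlecan (Hspg2) and agrin (Agrn), the small leucine-rich proteoglycans, the hyalectans and a few other carriers of glycosaminoglycan chains. In the enzyme group are the enzymes that start, extend, sulfate and trim heparan sulfate, together with a chondroitin synthase and a chondroitin sulfotransferase.

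The 18 libraries came from 9 conditions with 2 libraries each. OSKM-ESCs were embryonic stem cells (ESCs) moved from 2iL medium to N2B27 with doxycycline (DOX), and were collected 18, 25 and 38 days after the switch. 2iL-ESCs stayed in 2iL, which is N2B27 with the MEK inhibitor PD0325901, the GSK3 inhibitor CHIR99021 and LIF, and were collected on the same days. All ESCs came from 1 line, a cross of (C57BL/6 x 129S4/SvJae)F1 with (CBA/CaJ X C57BL/6J)F2, called Tet-On-OSKM/Oct4-GFP. This line holds M2rtTA in the Rosa26 locus, a polycistronic Oct4, Sox2, Klf4 and c-Myc (OSKM) cassette under DOX control in the Col1a1 locus and a GFP reporter of Oct4, so that 2iL-ESCs carried the transgenes without being given DOX. OSKM-iPSCs (clone 1 at passage 7 and clone 3 at passage 6) were induced pluripotent stem cells reprogrammed and kept in N2B27 with DOX. 2iL-iPSCs (clone 3 at passage 2 and clone 6 at passage 3) were reprogrammed in 2iL with DOX. For their daily culture the labels give N2B27 with DOX, whereas the methods of the study give 2iL with DOX withdrawn. Mouse embryonic fibroblasts (MEF, passage 4, DMEM with 10% FBS) and the iPSCs were of the strain (C57BL/6 x 129S4/SvJae)F1. The 6 libraries of a medium come from 1 ESC line sampled on successive days. The labels number the 2 libraries of a day without saying whether they were grown apart, and they are called cultures below. Libraries of successive days may therefore not be independent. The p-values measure the spread between such libraries and not between lines, and passage and medium cannot be told apart in the iPSCs. According to the methods, ESCs were derived and kept on mitomycin-treated MEF feeder cells and Tet-On-OSKM MEF cells were reprogrammed on feeder cells.

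Heparan sulfate is a long chain of repeating sugar pairs that is built in the Golgi on serines of a core protein. Xylosyltransferases start the linker, and the exostosins Ext1 and Ext2 extend the chain. N-deacetylase/N-sulfotransferases exchange acetyl for sulfate groups, and 2-O, 6-O and 3-O sulfotransferases add further sulfates. The endosulfatases Sulf1 and Sulf2 remove 6-O sulfates from finished chains outside the cell. The pattern of sulfates decides which growth factors bind, among them FGFs, WNTs and BMPs, and in mouse ESCs heparan sulfate is known as a co-receptor for FGF signalling during exit from the ground state.

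The 18 libraries held between 11303 and 12095 genes with an FPKM (fragments per kilobase of transcript, scaled to the mapped fragments of a library) over 1. The files hold no read counts. As a guide to depth, the ratio of coverage to FPKM was between 2.99 and 3.62. The summed FPKM of 9 pluripotency markers lay between 1323 and 1959 in OSKM-ESCs, between 2923 and 3358 in 2iL-ESCs and between 1.15 and 2.06 in MEF cells. The summed FPKM of 14 fibroblast markers lay between 2783 and 2864 in MEF cells. It lay between 24.6 and 43.0 in OSKM-ESCs and between 5.65 and 8.11 in 2iL-ESCs. OSKM-iPSC clone 1 stood apart with 107, against 7.32 in OSKM-iPSC clone 3 and between 5.55 and 7.05 in the 2iL-iPSC clones. The counts, medians and calls of OSKM-iPSCs are therefore also given without it. The summed FPKM of 5 mesoderm markers lay between 16.7 and 53.4 in OSKM-ESCs of days 18 and 25, was 203 and 207 at day 38, and lay between 6.07 and 9.28 in 2iL-ESCs. At day 38 nearly all of this was T (brachyury), at 194 and 198 FPKM, with Mixl1 at 1.76 and 1.90. The summed FPKM of 5 trophoblast markers was 27.4 and 25.4 in OSKM-ESCs of day 38, of which Cdx2, also a gene of the primitive streak, made up 26.3 and 24.5 while Elf5, Gata3 and Hand1 were listed at 0, and it was at most 2.28 in the other ESC libraries.

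The promoters of Sdc1 and Hspg2 are shown as those of abundant core proteins that were higher in OSKM-ESCs below, and that of Hs6st2 as that of the enzyme with the largest difference. A promoter from RefSeq was at hand for 33 of the 45 members (GRCm38.p6; 250 bases before and 50 bases after the start). The letters GGGCGG of the GC box, which SP and KLF factors can bind, were searched on both strands of the 250 bases before the start, together with an E-box (CACGTG), an AP-1 site (TGANTCA) and a TCF/LEF core (CTTTGA), each counted whether or not it overlapped another. These bases are printed 5′ to 3′ on the strand of the gene, with each GC box in capitals. Sdc1 (chr12:8771146-8771395, plus strand) has a GC box at 121, 104 and 49 bases before its start.
Sdc1: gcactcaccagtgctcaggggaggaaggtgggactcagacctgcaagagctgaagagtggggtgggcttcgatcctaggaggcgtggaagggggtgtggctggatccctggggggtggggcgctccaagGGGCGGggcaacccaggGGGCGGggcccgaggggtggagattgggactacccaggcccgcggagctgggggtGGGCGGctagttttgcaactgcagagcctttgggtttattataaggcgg
Hspg2 (chr4:137468553-137468802, plus strand) has 5 GC boxes, at 241, 183, 107, 87 and 68 bases before its start.
Hspg2: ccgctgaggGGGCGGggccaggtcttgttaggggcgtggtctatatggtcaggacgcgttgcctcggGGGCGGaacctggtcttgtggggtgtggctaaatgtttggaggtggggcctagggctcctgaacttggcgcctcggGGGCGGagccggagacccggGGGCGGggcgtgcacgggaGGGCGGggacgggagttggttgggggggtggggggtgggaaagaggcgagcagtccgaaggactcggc
Hs6st2 (chrX:51681603-51681852, minus strand), the first of 2 promoters listed for it, has none.
Hs6st2: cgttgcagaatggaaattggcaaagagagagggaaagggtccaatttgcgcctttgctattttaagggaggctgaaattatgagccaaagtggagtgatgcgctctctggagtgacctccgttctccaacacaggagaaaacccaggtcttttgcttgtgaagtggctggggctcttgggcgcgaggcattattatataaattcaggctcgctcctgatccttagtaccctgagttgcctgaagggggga
A GC box was present in 12 of the 13 members that were higher in OSKM-ESCs and had a promoter, in 12 of the 20 other members, and in 32.7% of all 32851 promoters. The other members include Gpc5, Fmod, Prelp, Bcan, Srgn, Cspg4, Ndst3, Hs6st3 and Hs3st1, which did not exceed an FPKM of 1 in any ESC library. Of these Gpc5, Bcan and Cspg4 had a GC box, so the groups also differ in expression. Gpc1, Gpc6, Dcn, Ext1, Extl3, Ndst1 and Sulf1 were higher but had no promoter at hand. The GC content of these promoters was high in both groups of members, with a median of 65.6% in the members that were higher and 62.6% in the others against 52.4% over all promoters. The E-box was present in 1 of 13 and 1 of 20 members (6.02% of all promoters), the TCF/LEF core in 2 of 13 and 1 of 20 (13.8%) and the AP-1 site in none of either group (6.75%).

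MEF cells had the richest expression of proteoglycans, as the heat map of all members shows. The mean FPKM was higher in MEF cells than over the pluripotent libraries for 18 of 24 core proteins and 18 of 21 enzymes. The same share was not computed over all genes. The count includes members near 0 in both, such as Ndst4 (0.0176 against 0.000708) and Hs6st3 (0.392 against 0.182). In the 16 pluripotent libraries, 9 core proteins exceeded an FPKM of 1 in all, 9 in some and 6 in none, and 11 enzymes exceeded it in all, 5 in some and 5 in none. Most abundant among the core proteins of pluripotent cells were Agrn, the agrin of basement membranes and neuromuscular junctions, and Hspg2, while Sulf2 and Hs6st1, a 6-O sulfotransferase, led the enzymes. Agrn lay between 20.7 and 79.3 FPKM in the pluripotent libraries and at 15.8 and 16.1 in MEF cells, so that no pluripotent library fell into the range of MEF cells. Hspg2 was at 132 and 130 in MEF cells and between 7.77 and 43.4 in pluripotent libraries. Sulf2 lay between 29.3 and 66.4 in pluripotent libraries and at 71.7 and 68.9 in MEF cells.

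**Figure D1:**
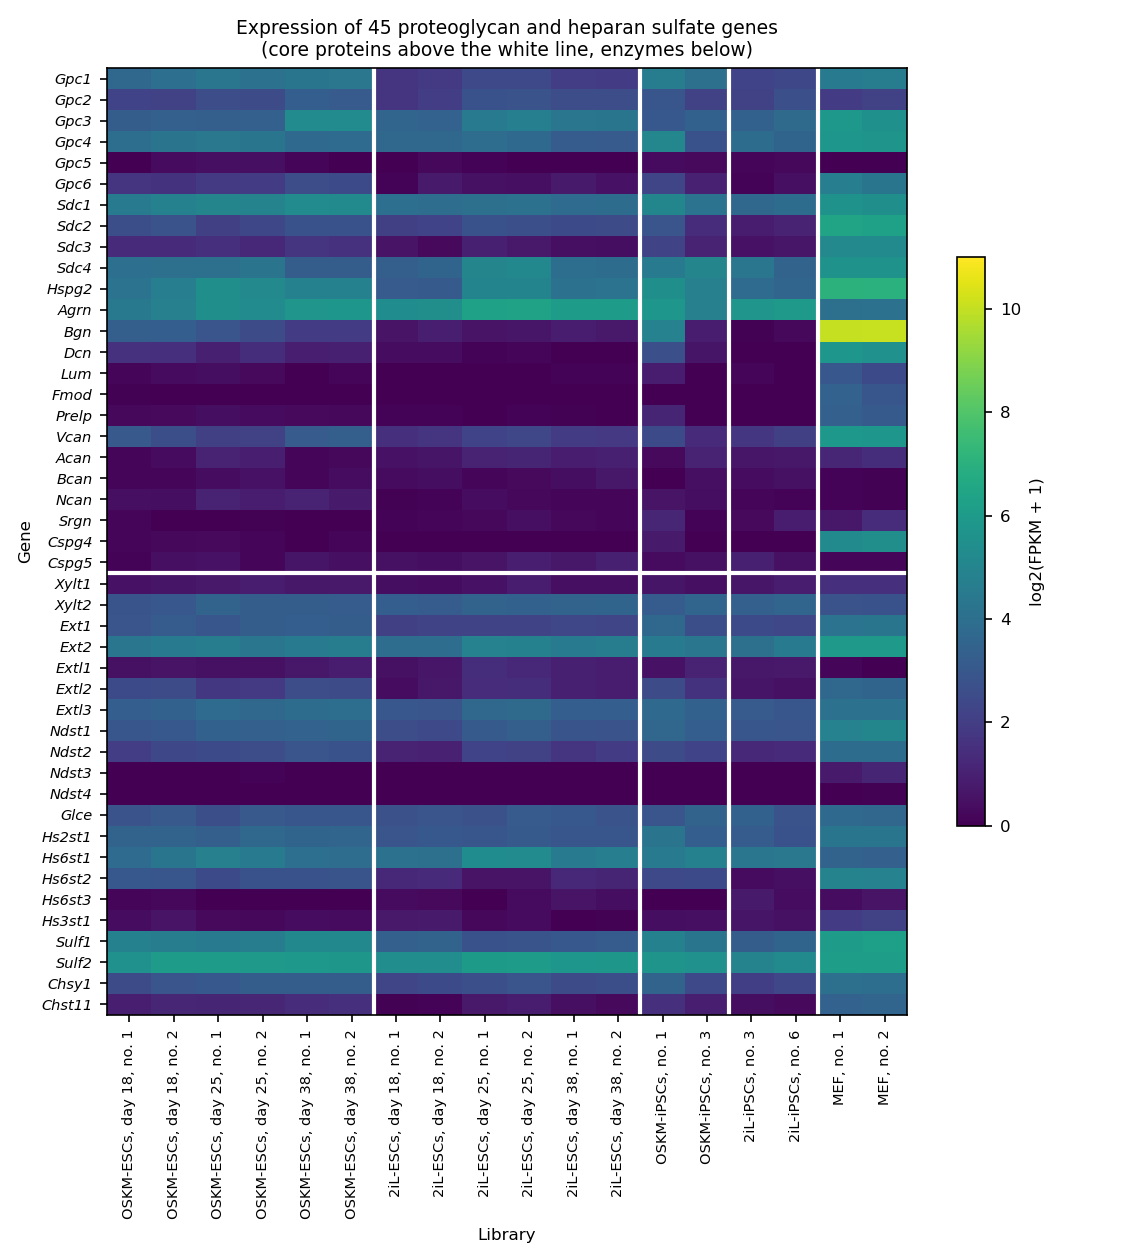
Each row is a gene and each column a library, and colour gives log2(FPKM + 1), with 24 core proteins above the white horizontal line and 21 enzymes below it. White vertical lines part OSKM-ESCs, 2iL-ESCs, OSKM-iPSCs, 2iL-iPSCs and MEF cells, and Bgn in MEF cells, at 1043 and 1087 FPKM, is the brightest row.

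The small leucine-rich proteoglycans and Cspg4, which organise collagen or mark mesenchymal cells, were largely those of MEF cells. Bgn (biglycan) was at 1043 and 1087 FPKM in MEF cells, Dcn (decorin) at 54.2 and 46.4, Cspg4 (NG2) at 35.9 and 42.8 and Fmod (fibromodulin) at 9.93 and 6.59. In pluripotent libraries Bgn reached 28.1 and Dcn 5.35, both in OSKM-iPSC clone 1, Cspg4 reached 0.710 in the same clone, and Fmod was listed at 0 in all but 1 of the 16 libraries. Against MEF cells, OSKM-iPSCs had 25 members lower and 3 higher (26.4% and 34% of 14210 genes tested), and 2iL-iPSCs had 32 lower and 3 higher (37.4% and 40.6% of 14224). Both comparisons use the same MEF libraries. Part of these counts is fixed by the filter, since 6 members passed it through MEF cells alone against OSKM-iPSCs (Lum, Fmod, Cspg4, Xylt1, Ndst3 and Hs3st1, all called lower) and 16 against 2iL-iPSCs (15 called lower). Among the members over an FPKM of 1 in both groups, 19 of 32 were lower in OSKM-iPSCs (24.5% of all such genes) and 17 of 22 in 2iL-iPSCs (33.9%). The median log2 fold change of the core proteins was -2.37 in OSKM-iPSCs and -2.91 in 2iL-iPSCs, and that of the enzymes was -1.06 and -1.57, against 0.19 and 0.09 over all genes. Over members above an FPKM of 1 in both groups, the core median was -1.91 and -2.03 and the enzyme median -1.06 and -1.46. Without OSKM-iPSC clone 1, 29 members were lower and 4 higher in OSKM-iPSCs (30.9% and 39.3% of all genes), with medians of -2.83 for the core proteins and -1.56 for the enzymes. Agrn, Xylt2, which starts the linker, and Hs6st1 were higher in both kinds of iPSC than in MEF cells. Agrn was higher by 1.20 ± 0.35 (log2, SE) in OSKM-iPSCs and 1.74 ± 0.10 in 2iL-iPSCs (limma, adjusted p = 0.042 and 9.4e-05), and Hs6st1 by 1.25 ± 0.15 and 0.94 ± 0.11 (adjusted p = 0.0041 and 0.00096). Without clone 1 the values of OSKM-iPSCs were 0.71 for Agrn (adjusted p = 0.0117), 0.78 for Xylt2 (0.0156) and 1.38 for Hs6st1 (0.0131).

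Gpc1, a GPI-anchored heparan sulfate proteoglycan, was at 21.3 and 23.7 FPKM in MEF cells and at 23.6 and 15.7 in the OSKM-iPSC clones, a log2 difference of -0.21 ± 0.22 that did not pass the test (adjusted p = 0.44; -0.49 and 0.0507 without clone 1), whereas it was at 3.61 and 4.23 in the 2iL-iPSC clones and had fallen by 2.26 ± 0.12 on the log2 scale (adjusted p = 8.4e-05). Among the 6-O sulfotransferases, Hs6st2 made up 73.9% of the summed FPKM in MEF cells and Hs6st1 25.1%. In 2iL-ESCs the order was turned round, with 94.2% Hs6st1 (between 90.3% and 98.8%) and 4.70% Hs6st2. OSKM-ESCs held 73.9% Hs6st1 (between 65.2% and 85.3%) and 25.9% Hs6st2 (between 14.7% and 34.2%).

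OSKM-ESCs and 2iL-ESCs were compared over all days to ask how expression differs between transgene-supported and inhibitor-supported pluripotency. Of the 24 core proteins 16 passed the filter (an FPKM over 1 in at least 1 library), 10 were higher and 2 lower at an adjusted p under 0.05, and of the 21 enzymes 16 passed, 10 were higher and 2 lower. Among the 14016 genes tested 29.5% were higher and 24.4% lower. The libraries of the 2 media did not overlap for 7 core proteins and 6 enzymes, all higher in OSKM-ESCs (14.6% of all genes tested, and 12% lower). With a fold over 2 and an unadjusted p under 0.05 in place of the adjusted p, 8 core proteins and 6 enzymes were higher and none was lower (13.6% of all genes higher and 10.5% lower). The median log2 fold change was 0.68 for the core proteins and 0.44 for the enzymes, against 0.03 over all genes. Gpc6, Sdc3, Bgn, Dcn, Ncan and Chst11 passed the filter through OSKM libraries alone, so that for them passing and being higher are linked, and Extl1 passed through 2iL libraries alone. Among members over an FPKM of 1 in both media, 5 of 11 core proteins and 9 of 14 enzymes were higher and 2 and 2 lower (27% and 23.2% of all such genes), and the core median was then 0.25 and that of the enzymes 0.44. For 2 of these 11 core proteins and 5 of these 14 enzymes the media did not overlap, all higher in OSKM-ESCs (11.7% of all such genes). Fewer cells of a type and less RNA per cell cannot be told apart in these bulk libraries.

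**Figure D2:**
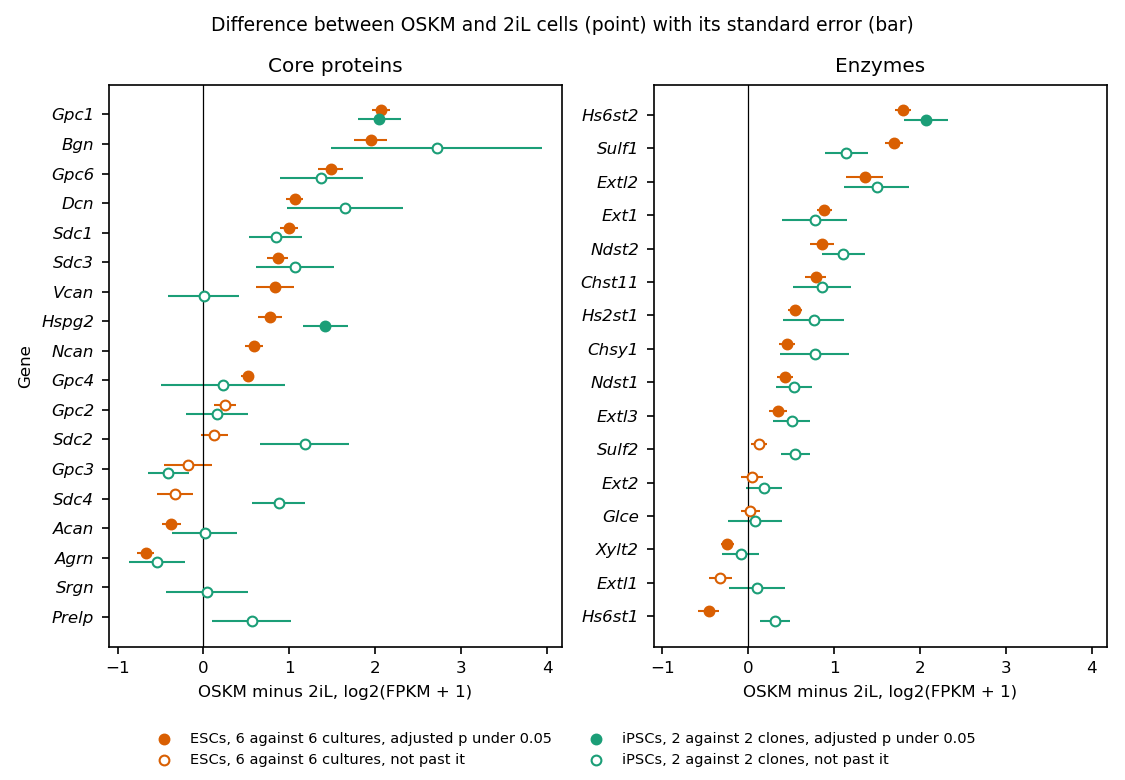
Points give the difference between OSKM and 2iL cells on the log2(FPKM + 1) scale and bars its standard error, for the members that passed the filter in ESCs (6 against 6 cultures) or iPSCs (2 against 2 clones). Filled points have an adjusted p under 0.05, and Gpc1, Hspg2 and Hs6st2 are filled in both.

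Among the glypicans, GPI-anchored carriers of heparan sulfate, Gpc1, Gpc4 and Gpc6 were higher, Gpc2 and Gpc3 did not pass the test and Gpc5 did not pass the filter. Gpc1 had a lowest, median and highest FPKM of 12.04, 17.4 and 19.5 in OSKM-ESCs and of 2.28, 2.96 and 4.37 in 2iL-ESCs. The lowest OSKM library thus lay well above the highest 2iL library, and the log2 fold change was 2.07 ± 0.10 (SE, limma, adjusted p = 1.9e-08, and exact 2-sided permutation p = 0.0022, the smallest that 6 against 6 can give). The permutation exchanged libraries without regard to day and treats the 6 of a medium as independent. It did not pass 0.05 for every member called by limma. The exact permutation p was 0.082 for Hspg2, 0.082 for Acan, 0.091 for Extl3 and 0.123 for Hs6st1. For the other called members it was 0.0498 (Xylt2) or lower. Gpc6 had 2.09, 2.696 and 5.05 against 0.0916, 0.427 and 0.754, and the log2 fold change was 1.48 ± 0.14 (adjusted p = 4.7e-06). Gpc4, with 12.7, 16.3 and 20.5 against 7.82, 11.8 and 14.5, overlapped between the media and was higher by 0.52 ± 0.08 (adjusted p = 0.00012), a call that was lost when all 9 conditions were fitted together (adjusted p = 0.129). Gpc1 made up 28.6% of the summed glypican FPKM in OSKM-ESCs (between 22.3% and 33.9%) and 8.73% in 2iL-ESCs (between 8.27% and 9.35%). Gpc3, which binds hedgehog and WNT ligands and is mutated in an overgrowth syndrome, was the largest glypican of 2iL-ESCs with 46.9%. Gpc3, Gpc4 and Hs6st2 are neighbours on the X chromosome (gaps of 107 and 371 kb). Of these 3 neighbours Hs6st2 had the largest difference between the media and Gpc3 one of -0.18 ± 0.28 (adjusted p = 0.61). The median log2 fold change of the 495 X-linked genes tested was 0.10.

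Among the syndecans, transmembrane carriers that bind growth factors and matrix, Sdc1 and Sdc3 were higher and Sdc2 and Sdc4 did not pass the test over all days. Sdc1 had 22.8, 30.0 and 39.0 FPKM in OSKM-ESCs and 13.3, 14.8 and 16.02 in 2iL-ESCs. The ranges did not meet, and the log2 fold change was 0.999 ± 0.105 (adjusted p = 8.1e-06). Sdc3 was low throughout, at 1.41, 1.63 and 2.19 against 0.200, 0.434 and 0.926, and was higher by 0.86 ± 0.12 (adjusted p = 8.5e-05). Sdc4, a focal adhesion syndecan, made up 45.8% of the syndecan FPKM in 2iL-ESCs and 26.9% in OSKM-ESCs, and Sdc1 40.9% and 59.9%, with overlapping ranges in each case.

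The basement membrane pair moved in opposite directions. Hspg2 had 17.3, 27.6 and 43.4 FPKM in OSKM-ESCs and 7.77, 16.9 and 30.4 in 2iL-ESCs, and was higher by 0.78 ± 0.14 (adjusted p = 0.00058). Agrn had 20.7, 41.1 and 53.5 against 40.3, 65.5 and 79.3, and fell by 0.67 ± 0.10 on the log2 scale (adjusted p = 0.00014). Both genes also varied with day, and in 2iL-ESCs both were lowest at day 18 and highest at day 25. Over all days the ranges of each gene overlapped. Their shares within a library did not overlap. Hspg2 held between 34.3% and 49.8% of the summed FPKM of this pair in OSKM-ESCs and between 15.5% and 28.0% in 2iL-ESCs. The same shares were 44.6% and 50.1% in the OSKM-iPSC clones, 15.8% and 20.3% in the 2iL-iPSC clones and 89.0% and 89.3% in the MEF libraries.

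The small leucine-rich proteoglycans Bgn and Dcn were higher in OSKM-ESCs, at levels far below those of MEF cells. Bgn had 2.88, 5.66 and 9.05 FPKM against 0.507, 0.628 and 0.871 (log2 fold change 1.95 ± 0.19, adjusted p = 4.9e-06), and Dcn 0.903, 1.33 and 1.98 against 0, 0.0969 and 0.290 (1.06 ± 0.10, adjusted p = 3.3e-06). Neither range overlapped. Fibroblast markers moved with them. Of the 14 markers 11 passed the filter, 9 were higher in OSKM-ESCs and none was lower (29.5% and 24.4% of all genes tested). In OSKM-ESCs 11 markers exceeded an FPKM of 1 in some library and in 2iL-ESCs 4, so for the others passing and being higher are linked. From 0 to 2 markers were listed at 0 in an OSKM-ESC library and 1 to 4 in a 2iL-ESC library. The median marker stood at 0.694% to 1.63% of its MEF mean in OSKM-ESCs and at 0.104% to 0.314% in 2iL-ESCs. When that percentage of the mean MEF profile was taken off each library, Bgn no longer exceeded an FPKM of 1 in any ESC library and could not be tested, and the log2 fold change of Dcn was 0.73. That of Gpc1 was then 2.06, that of Gpc6 1.43, that of Sdc1 0.98 and that of Hspg2 0.72. Single markers ranged from 0% to 9.90% of their MEF mean in OSKM-ESC libraries and from 0% to 4.14% in 2iL-ESC libraries. Taking off the median may therefore remove too little or too much for a given member, and which of these holds was not tested. Lum, Fmod and Prelp, of the same family, did not pass the filter.

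**Figure D3:**
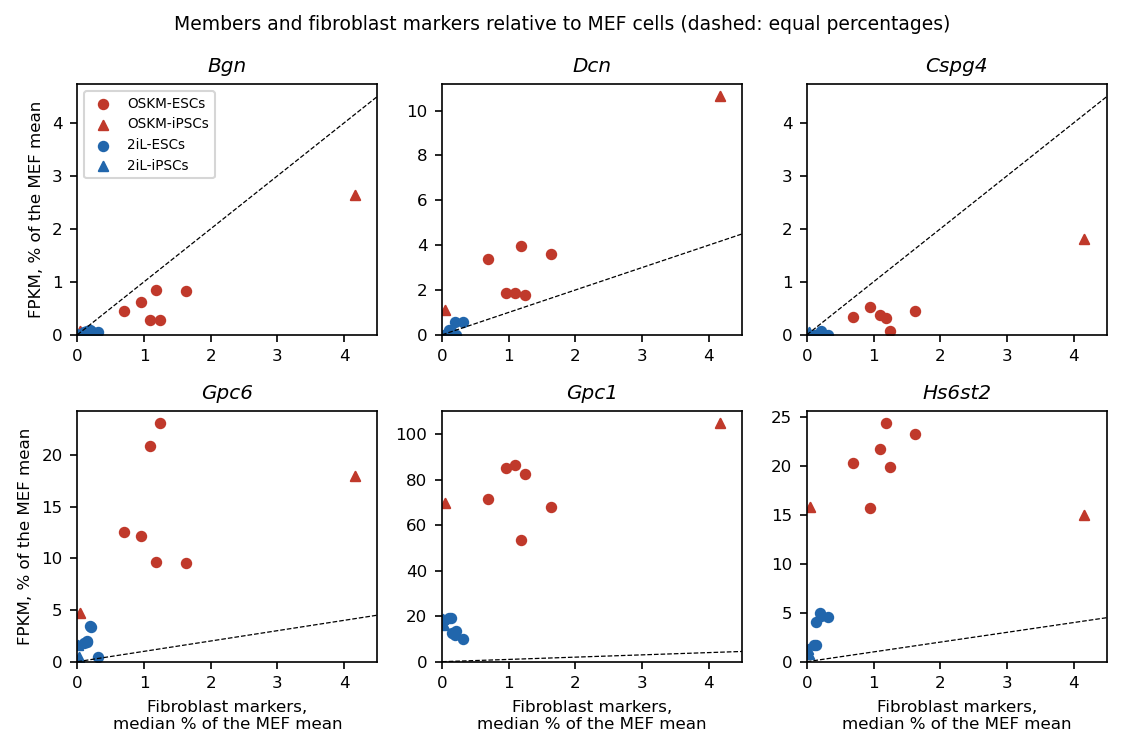
Each point is a pluripotent library, with the median fibroblast marker as a percentage of its MEF mean on the x axis and the FPKM of a member as a percentage of its MEF mean on the y axis. Bgn and Cspg4 lie below or near the dashed line of equal percentages in OSKM libraries, Gpc1 and Hs6st2 lie far above it, and OSKM-iPSC clone 1 is the triangle at 4.16%.

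Of the hyalectans, which bind hyaluronan, Vcan (versican) was higher, with 3.26, 6.33 and 9.19 FPKM against 1.84, 2.75 and 4.10 (log2 fold change 0.83 ± 0.22, adjusted p = 0.0074), and its call was lost without day 18 (0.60, adjusted p = 0.101) or without day 38 (0.57, adjusted p = 0.131). Ncan (neurocan) was higher at 0.341, 0.758 and 1.15 against 0.0557, 0.135 and 0.280 (0.59 ± 0.10, adjusted p = 0.00048), and Acan (aggrecan) was lower at 0.139, 0.216 and 1.08 against 0.464, 0.884 and 1.22 (-0.37 ± 0.11, adjusted p = 0.013). Ncan and Acan thus stayed near the filter, and the call of Acan was lost without day 18 (-0.40, adjusted p = 0.0505) or without day 38 (-0.21, adjusted p = 0.18). Bcan, Srgn, Cspg4 and Cspg5 did not pass the filter in ESCs.

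The enzymes that changed most, Hs6st2 and Sulf1, both act on 6-O sulfates. Hs6st2, a 6-O sulfotransferase, had 4.54, 6.08 and 7.05 FPKM in OSKM-ESCs and 0.490, 1.25 and 1.45 in 2iL-ESCs (log2 fold change 1.80 ± 0.10, adjusted p = 3.6e-08). Sulf1, the endosulfatase that takes 6-O sulfates off, had 21.98, 25.7 and 34.0 against 5.85, 7.62 and 10.3 (1.70 ± 0.11, adjusted p = 1.4e-07). Neither range overlapped, so an enzyme that adds 6-O sulfates and another that removes them were both higher in every OSKM library. Their abundant partners did not follow. Hs6st1 had 13.5, 16.8 and 26.4 against 15.7, 24.0 and 39.7 and fell by 0.46 ± 0.12 (adjusted p = 0.0078; -0.34 with 0.0861 without day 25 and -0.35 with 0.121 without day 38), and Sulf2 had 46.4, 58.3 and 66.4 against 41.4, 55.5 and 65.4, a difference of 0.12 ± 0.09 that did not pass (adjusted p = 0.27). The summed FPKM of the 6-O sulfotransferases lay between 20.4 and 30.9 in OSKM-ESCs and between 17.4 and 40.2 in 2iL-ESCs. The endosulfatase sum lay between 73.6 and 90.7 against 50.8 and 71.6, with 32.2% and 13.3% Sulf1.

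**Figure D4:**
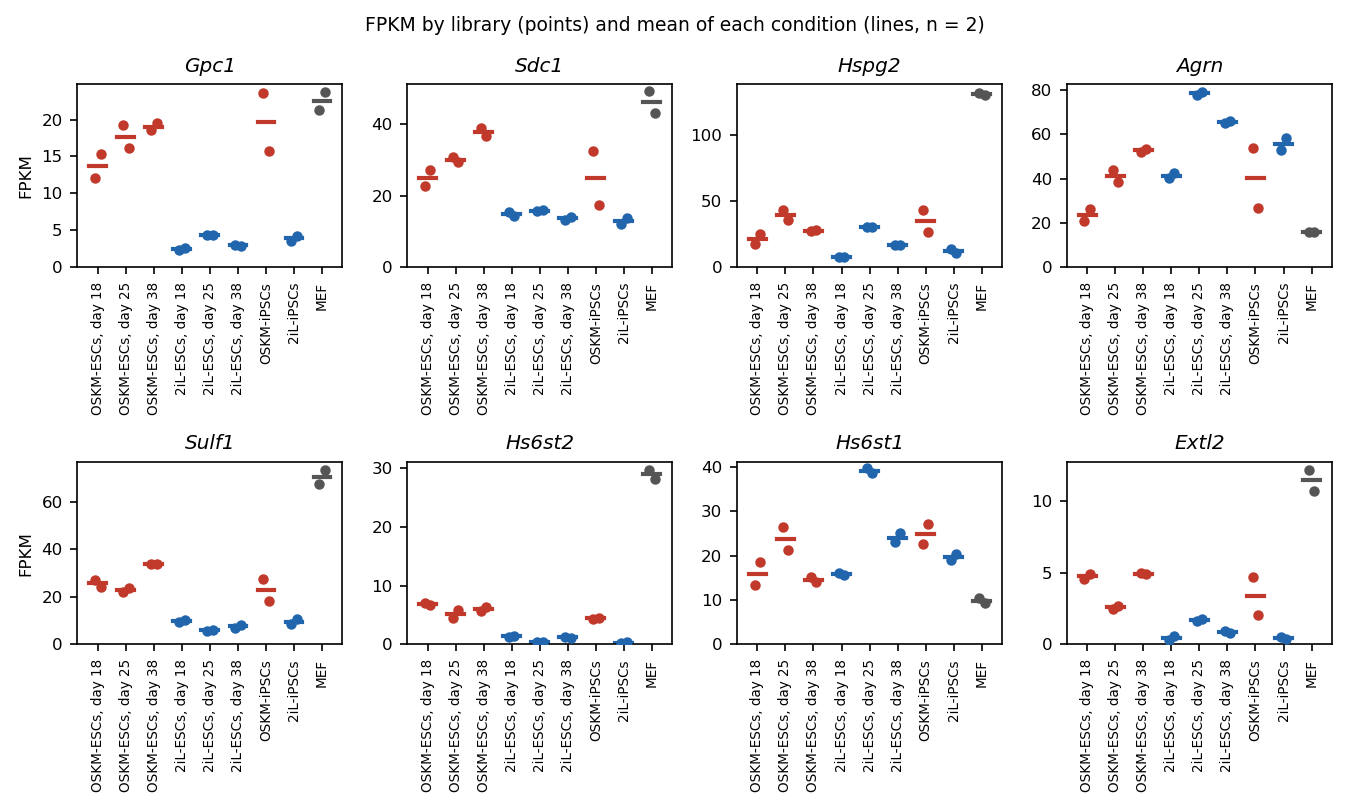
Points are FPKM by library and lines the mean of each condition (n = 2), in red for OSKM cells, blue for 2iL cells and grey for MEF cells. In ESCs Gpc1, Sdc1, Sulf1, Hs6st2 and Extl2 separate the media without overlap, whereas Hspg2, Agrn and Hs6st1 overlap across days.

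Of the 5 exostosin family genes Ext1, Extl2 and Extl3 were higher, and of the N-sulfotransferases both that passed the filter. Extl2, which adds N-acetylglucosamine to the linker, had 2.47, 4.74 and 4.97 FPKM against 0.286, 0.882 and 1.74 (log2 fold change 1.36 ± 0.22, adjusted p = 0.00022). Ext1, one subunit of the heparan sulfate polymerase, had 6.42, 8.23 and 8.84 against 3.25, 3.75 and 4.09 (0.89 ± 0.08, adjusted p = 3.7e-06). Neither overlapped. Ext2, the other subunit, had 19.2, 22.7 and 23.8 against 14.2, 22.9 and 28.2, a difference of 0.05 ± 0.13 (adjusted p = 0.77). Ndst2 was higher by 0.85 ± 0.14 and Ndst1 by 0.43 ± 0.09 (adjusted p = 0.00027 and 0.0018), and Hs2st1, the 2-O sulfotransferase, had 9.03, 10.6 and 11.7 against 6.55, 6.71 and 7.54 without overlap (0.54 ± 0.08, adjusted p = 9.1e-05). Ndst1 held 64.9% of the N-sulfotransferase FPKM in OSKM-ESCs and 74.5% in 2iL-ESCs, and Ndst3 and Ndst4 stayed below 0.1 in every pluripotent library. Glce, the epimerase that turns glucuronic into iduronic acid, differed by 0.02 ± 0.11 (adjusted p = 0.87).

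Of the remaining enzymes Extl3 (0.35 ± 0.10), Chsy1 (0.45 ± 0.09) and Chst11 (0.79 ± 0.12), the last 2 of which extend and 4-O-sulfate chondroitin, were higher (adjusted p = 0.011, 0.0014 and 0.00021). Chst11 had 0.914, 1.26 and 1.77 FPKM against 0.0596, 0.304 and 0.811 and did not overlap. Xylt2 was lower by a small amount (-0.24 ± 0.08, adjusted p = 0.016), with 6.22, 8.28 and 10.2 against 8.22, 10.0 and 10.8. The call of Xylt2 was lost without day 18 (-0.21, adjusted p = 0.0893) or without day 38 (-0.21, adjusted p = 0.151), as was that of Extl3 (0.32, adjusted p = 0.0737, and 0.20, adjusted p = 0.191). Extl1 did not pass the test (-0.33 ± 0.14, adjusted p = 0.060), and Xylt1, Hs6st3 and Hs3st1 did not pass the filter. After the fibroblast percentage was taken off, the log2 fold change was 1.77 for Hs6st2, 1.68 for Sulf1, 1.34 for Extl2 and 0.86 for Ext1.

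A further 65 genes of glycosaminoglycan biology, from a list that covers precursors, 3-O sulfotransferases, chondroitin and dermatan sulfate, hyaluronan, degradation and other core proteins, were counted alongside. Of these 42 passed the filter, 24 were higher and 5 lower, with a median log2 fold change of 0.44. Over all genes tested 29.5% were higher and 24.4% lower, with a median of 0.03. How many of the 42 passed the filter through OSKM libraries alone was not counted. For such genes passing and being higher are linked, so these counts and the median may be raised by the filter. The chondroitin and dermatan sulfate genes had 8 of 10 higher and 1 lower, the degradation genes 7 of 11 higher and 2 lower, and the linkage and precursor genes 3 of 13 higher and 2 lower. By size the first were Col18a1, a basement membrane collagen that carries heparan sulfate (2.03), the hyaluronan synthase Has2 (1.89), the chondroitin sulfotransferase Chst15 (1.82), the hyaluronan receptor Cd44 (1.63), the lysosomal galactosidase Glb1 (-1.53) and Chst7 (1.27).

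The difference between media was not the same on every day. At day 18, 21 members were higher and 1 lower (25.7% and 17.7% of 12774 genes), at day 25, 13 and 7 (20.7% and 25.3% of 13098), and at day 38, 22 and 4 (34.6% and 25.2% of 13142). On each day 6 of the members called higher had passed the filter through OSKM libraries alone, so passing and being higher are linked for them. Over members above an FPKM of 1 in both media, 15 of 23 were higher and 1 lower at day 18. At day 25, 7 of 24 were higher and 6 lower, and at day 38, 16 of 23 and 4. Over all such genes the shares were 22.4% and 15.5%, 18.5% and 23.5%, and 32.1% and 24.1%. Gpc1, Gpc4, Gpc6, Sdc1, Sdc3, Bgn, Ext1, Extl2, Hs2st1, Hs6st2 and Sulf1 were higher on all 3 days, and Agrn was lower on all 3. With a fold over 2 and an unadjusted p under 0.05, 13, 8 and 14 members were higher on the 3 days (14.8%, 10.5% and 15.3% of all genes) and 0, 2 and 0 lower (9.64%, 13.5% and 10%). An interaction of medium and day passed the test for 19 members (37.9% of all genes tested). Leaving out a day also gave calls that were not made over all days. Sdc4 (-0.81, adjusted p = 9.4e-05) and Extl1 (-0.47, adjusted p = 0.0437) were lower in OSKM-ESCs without day 18, Gpc2 (0.49, adjusted p = 0.0036) and Sdc2 (0.43, adjusted p = 0.00478) were higher without day 25, and Gpc3 (-0.77, adjusted p = 0.0176) was lower without day 38.

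**Figure D5:**
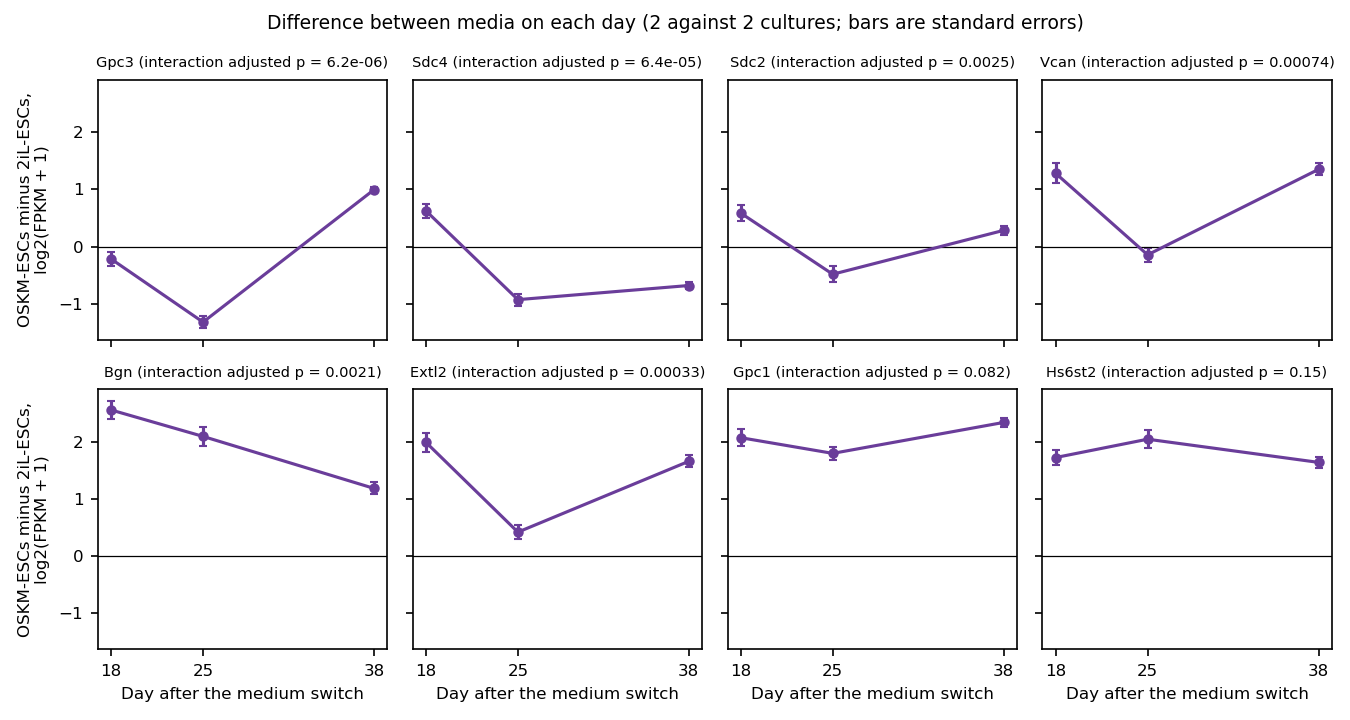
Points give OSKM-ESCs minus 2iL-ESCs on the log2(FPKM + 1) scale at days 18, 25 and 38 after the switch, and bars the standard error (2 against 2 cultures). Gpc3, Sdc4, Sdc2 and Vcan cross the zero line, while Gpc1 and Hs6st2 stay between 1.64 and 2.34 above it.

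Gpc3 turned round most sharply. Its FPKM in OSKM-ESCs was 8.42 and 9.27 at day 18, 8.99 and 9.31 at day 25, and 38.3 and 38.5 at day 38. In 2iL-ESCs it was 10.9 and 9.95, 23.2 and 25.7, and 18.9 and 18.6. The 2iL libraries thus lay lowest at day 18 and the OSKM libraries highest at day 38, and the difference was -0.22 ± 0.12, -1.32 ± 0.10 and 0.99 ± 0.05 on the 3 days (adjusted p of the interaction = 6.2e-06). OSKM-ESCs of day 38 are also the libraries with T at 194 and 198 FPKM and Cdx2 at 26.3 and 24.5, and the part of cells with these markers in the Gpc3 value was not tested.

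Sdc4 was at 15.4 and 15.9, 15.6 and 17.6, and 8.45 and 8.62 FPKM in OSKM-ESCs, and at 9.12 and 10.5, 31.3 and 33.7, and 14.8 and 13.9 in 2iL-ESCs. It was higher in OSKM-ESCs at day 18 (0.63 ± 0.12, adjusted p = 0.0068) and lower at days 25 and 38 (-0.93 ± 0.10 and -0.68 ± 0.07, adjusted p = 0.0018 and 0.00072). Sdc2 and Ext2 also changed sign between day 18 (0.59 and 0.52) and day 25 (-0.49 and -0.39), with a call on each of these days. Extl2 kept its direction but was higher by 1.99 ± 0.16 and 1.66 ± 0.10 at days 18 and 38 and by 0.42 ± 0.12 at day 25 (adjusted p of the interaction = 0.00033). Its 2iL libraries were at 1.61 and 1.74 at day 25 and between 0.286 and 0.972 on the other days.

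Vcan was higher at days 18 and 38 (1.28 ± 0.17 and 1.35 ± 0.10) and differed by -0.15 ± 0.12 at day 25, when its OSKM libraries were at 3.26 and 3.56 and its 2iL libraries at 3.66 and 4.10. Bgn was at 9.05 and 8.76 FPKM at day 18, 6.54 and 4.78 at day 25 and 2.92 and 2.88 at day 38 in OSKM-ESCs, and between 0.507 and 0.871 in 2iL-ESCs throughout. Its difference between media went from 2.56 ± 0.15 through 2.09 ± 0.17 to 1.18 ± 0.11 (adjusted p of the interaction = 0.0021). Over the same libraries the fibroblast marker sum was 37.4 and 43.0 at day 18, 24.6 and 24.6 at day 25 and 34.5 and 33.8 at day 38. Sulf1 and Sdc1 had their largest differences at day 38 (2.02 ± 0.08 and 1.40 ± 0.06) and their smallest at day 18 (1.30 ± 0.12 and 0.71 ± 0.13).

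OSKM-iPSCs and 2iL-iPSCs were compared with 2 clones a side. This contrast is not the same as that in ESCs, since 2iL-iPSCs were reprogrammed with DOX and 2iL-ESCs were not given it. The labels and the methods also disagree on the daily culture of 2iL-iPSCs, so what differed in their medium is not settled. Of the core proteins 17 passed the filter and 2 were higher, and of the enzymes 16 passed and 1 was higher, with none lower (5% and 2.96% of 13653 genes tested). The median log2 fold change was 0.84 for the core proteins and 0.66 for the enzymes, against 0.09 over all genes. Without OSKM-iPSC clone 1 it was 0.42 for the core proteins (13 passed the filter, 5 of them below 0) and 0.38 for the enzymes, against 0.08 over all genes. Gpc6, Sdc3, Bgn, Dcn, Prelp, Acan, Srgn, Extl1, Extl2, Hs6st2 and Chst11 passed the filter through OSKM-iPSC libraries alone. Over the other 22 members the core median was 0.53 and the enzyme median 0.54, and the 2 calls were those of Gpc1 and Hspg2. With a fold over 2 and an unadjusted p under 0.05, 3 core proteins and 5 enzymes were higher and none lower (11.5% and 6.33% of all genes). Under quantile normalization the median of all genes was -0.02, and the share of calls over all genes that were higher was 49%, against 62.8% as reported here. Both OSKM-iPSC clones lay above both 2iL-iPSC clones for 9 core proteins and 12 enzymes (37.2% of all genes), and 1 core protein lay below (25.4%). Among members over an FPKM of 1 in both kinds of iPSC this held for 5 of 10 core proteins and 9 of 12 enzymes (34.8% of all such genes). Clone 1 lay above both 2iL-iPSC clones for 14 core proteins and 13 enzymes, and clone 3, with few fibroblast markers, for 10 and 14 (47.7% and 47.9% of all genes).

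Gpc1 was at 23.6 and 15.7 FPKM in the OSKM-iPSC clones and at 3.61 and 4.23 in the 2iL-iPSC clones, and was higher by 2.05 ± 0.25 on the log2 scale (limma, adjusted p = 0.017). Hs6st2 was at 4.34 and 4.57 against 0.241 and 0.363 (2.07 ± 0.25, adjusted p = 0.017). It passed the filter through the OSKM-iPSC clones alone, so that passing and being higher are linked. Hs6st2 is X-linked, and the median log2 fold change of the 504 X-linked genes tested in iPSCs was 0.47. How many X chromosomes each clone carries was not tested. Hspg2 was at 43.2 and 26.9 against 13.5 and 10.9 (1.42 ± 0.26, adjusted p = 0.039). All 3 were called in ESCs too. Without OSKM-iPSC clone 1, where the lone clone is assumed to vary like the others, Gpc1 was higher by 1.77 (adjusted p = 0.0339), Hs6st2 by 2.10 (adjusted p = 0.0319) and Hspg2 by 1.09 with an adjusted p of 0.0609, and 1 core protein and 1 enzyme were called higher and 1 core protein, Agrn, lower (3.83% and 2.58% of all genes). By the same test, without either 2iL-iPSC clone none of the 3 was called (adjusted p between 0.318 and 0.339).

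For other members the test did not pass. Sulf1 was at 27.5 and 18.1 FPKM against 8.61 and 10.6 (1.14 ± 0.25, adjusted p = 0.054), Ndst2 at 4.96 and 3.70 against 1.43 and 1.49 (1.11 ± 0.25, adjusted p = 0.057) and Extl2 at 4.71 and 2.02 against 0.542 and 0.406 (1.50 ± 0.38, adjusted p = 0.069). Bgn was at 28.1 and 0.826 against 0.044 and 0.183, Dcn at 5.35 and 0.546 against 0 and 0, and Gpc4 at 33.1 and 5.87 against 13.9 and 10.6. The high value of each is that of clone 1, in which the median fibroblast marker was at 4.16% of its MEF mean against 0.0459% in clone 3. Agrn was at 53.8 and 26.8 against 53.1 and 58.2 (-0.54 ± 0.33, adjusted p = 0.32; -1.03 and 0.0481 without clone 1).

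The difference between OSKM and 2iL cells was then set against the kind of cell, as the iPSC difference minus the ESC difference. The 2 contrasts also differ in exposure to DOX and in how certain the daily culture is. The members that passed this test were Sdc4 and Hs6st1, both higher in iPSCs (8.67% of 14621 genes were higher and 5.55% lower). Sdc4 was at 22.8 and 31.1 FPKM in OSKM-iPSCs and at 18.8 and 10.5 in 2iL-iPSCs, so that its difference was 0.87 ± 0.31 in iPSCs and -0.33 ± 0.21 in ESCs, and these differed by 1.20 (adjusted p = 0.0088). Hs6st1 was at 22.6 and 27.2 against 19.1 and 20.5, a difference of 0.31 ± 0.17 in iPSCs and -0.46 ± 0.12 in ESCs, and these differed by 0.77 (adjusted p = 0.013). The ESC value is a mean over days that differ. Set against ESCs of day 18 alone neither gene passed (0.25 with adjusted p = 0.713 for Sdc4 and 0.32 with 0.449 for Hs6st1), whereas both passed against day 25 (1.80 with 0.00194 and 1.01 with 0.00582) and day 38 (1.56 with 0.00729 and 0.99 with 0.0118). With the fibroblast percentage taken off, 5 members passed (14.5% of all genes), and 10 passed without OSKM-iPSC clone 1 (23.8%) and 14 without clone 3 (25.2%). Sdc4 and Hs6st1 were among them both times (1.42 and 0.90 without clone 1, 0.99 and 0.64 without clone 3), while Gpc4 (-1.45 and 0.86) and Bgn (-1.23 and 2.77) passed with opposite signs. For Gpc1 the difference between OSKM and 2iL cells was 2.05 in iPSCs and 2.07 in ESCs, and for Hs6st2 2.07 and 1.80.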

How the data were processed

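RNA-Seq libraries (poly-A selected, NEBNext Ultra RNA) were sequenced from 18 samples of 9 conditions. Reads were mapped by the authors to GRCm38 (STAR 2.7.1a), filtered for unique hits and passed to StringTie 2.0. The FPKM values are as deposited, fragments per kilobase of transcript scaled to all mapped fragments of a library. The deposited coverage is a signal with no normalization (reads per base of a gene) and served only as a guide to depth, as its ratio to FPKM over genes above an FPKM of 1. As no read counts were at hand, no counting interval is given, and a value of 0 is called listed at 0. The library preparation is not stated to keep strand, so overlapping genes on opposite strands cannot be told apart.

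Conditions came from the sample titles. Values of 11 repeated gene identifiers were summed, 2 genes with a failed value were left out, and no replicate pair held identical values. A limma 3.58.1 model in R 4.3.3 (lmFit and eBayes, trend on) took log2(FPKM + 1) of every gene that exceeded an FPKM of 1 in 1 or more libraries of the comparison, and a term for day in the ESC comparison that joins the days. Benjamini-Hochberg adjustment covered all genes of a fit. A gene is called higher or lower at an adjusted p under 0.05, and fold changes on this scale understate the change of low genes. Cuffdiff 2.2.1, the authors' tool, needs aligned reads and was not used. The procedure was tested on simulated data. In the alternative that takes off fibroblast RNA, each library lost the MEF mean profile times the median percentage of 14 fibroblast markers.

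The members, the gene lists and the rule for naming genes were chosen with earlier results of these data known. Values by library are given for the called members without overlap between media and the largest changes, for those called in iPSCs, for 5 with the smallest interaction p, for the 4 most abundant and for 4 core proteins with the largest MEF ratio. Other members named were chosen after their values were seen. Promoters came from RefSeq (GRCm38.p6), and the first 50 transcribed bases of each one printed were found in at least 2 GENCODE M21 transcripts of the gene. Python 3.11.15 with pandas 2.3.3, numpy 2.4.6 and matplotlib 3.10.9 was used for the rest.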

Additional observations from a re-analysis of the deposited data

Results flagged for a closer look

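The difference between OSKM-ESCs and 2iL-ESCs changed with day for 19 members, by an F test of the medium and day interaction (limma, adjusted over all genes tested). Among the core proteins the adjusted p was 6.2e-06 for Gpc3, 6.4e-05 for Sdc4, 0.00074 for Vcan, 0.0021 for Bgn, 0.0025 for Sdc2, 0.0054 for Gpc2, 0.006 for Sdc1, 0.016 for Hspg2, 0.022 for Agrn, 0.034 for Acan and 0.044 for Sdc3. Among the enzymes it was 0.00033 for Extl2, 0.0037 for Ext2, 0.0079 for Sulf1, 0.01 for Extl1, 0.012 for Extl3, 0.015 for Chst11, 0.024 for Ndst2 and 0.031 for Hs6st1. Such an interaction passed for 37.9% of all genes tested, so that 19 of 32 members is a share to be read against a common pattern. Gpc2 differed by 0.36 ± 0.16 at day 18, -0.24 ± 0.10 at day 25 and 0.62 ± 0.08 at day 38, and only the last was called. Hspg2 differed by 1.29 ± 0.18, 0.36 ± 0.12 and 0.68 ± 0.05 on the same days, and Agrn by -0.79 ± 0.14, -0.92 ± 0.10 and -0.31 ± 0.04.

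The difference between OSKM and 2iL cells in iPSCs was unlike that in ESCs for Sdc4 (adjusted p = 0.0088) and Hs6st1 (adjusted p = 0.013), by a limma test of the difference of differences. Groups had 2 samples each within a day, so no test for a sample that stands apart was run.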

How the results depend on the processing

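In ESCs over all days and in iPSCs, no called member that could still be tested changed direction under any alternative. For the other comparisons only counts of members were followed. In ESCs over all days, a 2-fold criterion left 0 core proteins and 0 enzymes lower and 6 enzymes higher (10.5% and 13.6% of all genes). Leaving out whole days, leaving out an OSKM-iPSC clone against MEF cells, single ESC days set against iPSCs and counts over genes that passed in both groups were chosen after seeing the data. Leaving out whole days gave 1 core protein and 1 enzyme lower without day 25 (22.1% of all genes). Without day 38 it gave 0 enzymes lower (20.2%). Leaving out single libraries gave 10 core proteins higher and 2 lower throughout, 10 enzymes higher, and 2 to 3 enzymes lower. Over all genes, between 26.9% and 30.5% were then higher and between 22.4% and 24% lower. At day 18, quantile normalization gave 2 members lower (21.1% of all genes) and the 2-fold criterion 13 higher and 0 lower (14.8% and 9.64%). At day 25, a fit of all 9 conditions gave 7 higher (20.1%) and the 2-fold criterion 8 higher and 2 lower (10.5% and 13.5%). At day 38, no filter gave 7 lower (14.1%) and the fit of all conditions 2 lower (17.8%). The 2-fold criterion there gave 14 higher and 0 lower (15.3% and 10%).

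In iPSCs the calls rest on few clones. Without a filter limma called 0 core proteins and 0 enzymes (0% of all genes). At an unadjusted p under 0.05, 3 core proteins and 7 enzymes were then higher and 1 enzyme lower. With the filter 5 core proteins and 7 enzymes were higher by that threshold. With an FPKM over 1 in at least 2 libraries 3 enzymes were higher (7.2% of all genes), and with quantile normalization 1 core protein (3.09%). Without trend 1 core protein and 2 enzymes were higher (4.37%). The 2-fold criterion gave 5 enzymes higher (11.5%), and with fibroblast RNA taken off 2 enzymes were higher (5.13%). A fit of all 9 conditions gave 9 core proteins and 11 enzymes higher and 1 core protein lower (27.8% and 17.2% of all genes, against 5% and 2.96%). Leaving out a clone gave 0 to 10 core proteins higher, 0 to 1 lower and 0 to 6 enzymes higher, with the most without OSKM-iPSC clone 3 (10.4% of all genes higher) and 0, as over all genes, without either 2iL-iPSC clone (at an unadjusted p under 0.05, 3 core proteins and 1 enzyme without clone 3 and 2 and 4 without clone 6). The interaction with day was called for 12 to 20 members when a library was left out, the fewest without the second 2iL-ESC culture of day 25 (28.1% of all genes). The difference between iPSCs and ESCs was called for 2 to 14 members, for 10 without OSKM-iPSC clone 1, for 14 without clone 3, and for 5 with fibroblast RNA taken off (23.8%, 25.2% and 14.5% of all genes, against 14.2%). Against MEF cells, quantile normalization left 1 member higher in OSKM-iPSCs (31.1% of all genes) and no filter gave 6 higher in 2iL-iPSCs (24.4%). The cause of these shifts was not tested.

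Culture numbers were shared by the media on each day, but deviations of same-numbered cultures correlated at 0.131, 0.0904 and 0.012 over genes on days 18, 25 and 38, so that they were not treated as pairs. With the replicate block 10 core proteins and 10 enzymes were higher and 2 and 2 lower (26% and 21.6% of all genes). An interaction with day was then called for 16 members (35.4%). No paired analysis was possible in iPSCs because clone numbers are not a pairing.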
